A study of Mus musculus with 12 samples.

Results

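The Zfp genes, which encode zinc finger proteins, were examined in the blood of aged mice given *Akkermansia muciniphila* and of control mice. Members were taken from the blood table by symbol, as every symbol that begins with Zfp and a digit, and those that begin with Zfp36 were left out. This gave 185 genes of the 8003 in the table, from 189 Zfp symbols. The 4 symbols left out were Zfp36 and Zfp36l1, which encode RNA-binding proteins with a different type of finger, and Zfp362 and Zfp365, which only begin with the same letters. The blood came from 6 C57BL/6 mice aged 15 months, 3 in the control group (Ctrl 1, 2 and 3, treatment given as normal) and 3 in the treated group (Akk 1, 2 and 3), with 1 library per mouse. The labels name a membrane protein of *A. muciniphila* as the treatment, with 8 weeks in the treatment field of the Akk mice and 6 weeks in a protocol field that the control samples carry too. The study's methods instead describe gavage of the bacterium after antibiotics, with vehicle for the controls, and describe the mice used for RNA as not successfully colonized. The comparison addressed how the blood transcriptome of aged mice differed with *A. muciniphila*, and the mice are called Ctrl and Akk as in the study.

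A C2H2 zinc finger is a short loop of protein held by a zinc ion between a pair of cysteines and a pair of histidines. Fingers strung in a row read DNA a few bases at a time, and some fingers bind RNA or protein instead. Many members of the family carry a KRAB box, which recruits a corepressor complex that lays down repressive histone methylation, and these KRAB proteins are known for silencing retroelements in early development. Smaller groups of the family act in lymphocyte and blood cell development, in RNA handling or as partners of histone-modifying complexes.

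The DNA that encodes a finger shows what the members share. In the 4 lines that follow, the stretch that codes for the earliest finger of the plain form is given for the 4 most abundant members that have such a finger, with the codons of the pair of cysteines and the pair of histidines in capitals. The sequences are from GENCODE M21 transcripts (GRCm38), 5′ to 3′ on the coding strand. The genes lie on chromosome 5 (Zfp664), 14 (Zfp219), 2 (Zfp937) and 6 (Zfp384).
Zfp664: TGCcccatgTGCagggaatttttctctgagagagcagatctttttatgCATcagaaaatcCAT
Zfp219: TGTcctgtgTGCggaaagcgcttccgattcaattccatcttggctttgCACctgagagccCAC
Zfp937: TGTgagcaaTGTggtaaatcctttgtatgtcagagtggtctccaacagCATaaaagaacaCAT
Zfp384: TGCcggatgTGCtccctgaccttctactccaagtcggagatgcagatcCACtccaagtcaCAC
The capitals mark the same 4 positions in each line, while the bases between the cysteines and histidines, which hold the residues that touch DNA, differ between the genes.

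Of the 185 members, 184 were matched to a coding transcript, and all except Zfp33b are in the counts of protein features. A pattern for the KRAB A box was found in 100 of 184 (54.3%), against 34 of 7445 other genes of the table whose protein held no finger by pattern (0.457%). Here and below, a KRAB A box means a match to this pattern. A box that departs from the pattern is missed, so a member without a match may still carry one. The SCAN box, which lets such proteins pair with each other, was found in 5 members (Zfp24, Zfp110, Zfp263, Zfp397 and Zfp444). By pattern, 109 members had 10 or more C2H2 fingers, 62 had 3 to 9 and 13 had fewer than 3. Zfp142 had the most, with 41. The linker that joins neighbouring fingers in DNA-binding members was present in 131, counted only in its exact form TGEKP. Variants of the linker were not counted, so members without this form may still have one. Members were unevenly placed in the genome (GRCm38.p6). Chromosome 7 held 40 of them (21.6%, against 7.33% of all table genes), chromosome 13 held 22 (11.9% against 3.86%) and chromosome 17 held 22 (11.9% against 5.15%). A KRAB A box was found in 20 of the 40 on chromosome 7, in 18 of the 22 on chromosome 13 and in 20 of the 22 on chromosome 17.

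Promoters of the members were searched for short motifs and set beside those of other genes. RefSeq promoters, 250 bases before to 50 bases after the earliest listed start, were matched for 151 of the 185 members. A form of the site bound by the zinc finger protein Zfp143, ACTACA followed after any pair of bases by TCCC, was found on either strand in 27 of 151 member promoters (17.9%), against 4.28% of 6287 other genes of the blood table and 1.98% of all 27025 promoters. The CCAAT box stood on either strand in 51.7% of member promoters, against 37.8% and 37.9%. The SP and KLF box GGGCGG was found in 50.3%, against 64.3% and 35.9%. TATAAA was found in 5.3%, against 7.17% and 14.2%, and the YY1 core AAGATGG in 9.27%, against 7.87% and 6.48%. The Zfp143 form was chosen after the promoters had been read. It is shown here in the 4 members with it that had the highest mean level, since of these 5 motifs it had the share farthest, in proportion, from that of the table. The site is in capitals, and it reads on the opposite strand in all 4. The RefSeq stretches (GRCm38.p6) are chr13:67729164-67729207 on the minus strand for Zfp65, chr7:24081858-24081901 on the plus strand for Zfp180, chr13:67451630-67451673 on the minus strand for Zfp874a and chr7:6172357-6172400 on the plus strand for Zfp444.
Zfp65: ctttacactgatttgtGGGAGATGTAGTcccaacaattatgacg
Zfp180: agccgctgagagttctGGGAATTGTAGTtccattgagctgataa
Zfp874a: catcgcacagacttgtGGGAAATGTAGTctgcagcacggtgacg
Zfp444: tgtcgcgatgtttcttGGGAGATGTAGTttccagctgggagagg
A match is a description of the letters and not of binding.

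The promoters of the 3 KRAB genes of chromosome 2 with a mean of at least 0.5 FPKM (Zfp937, Zfp971 and Zfp972) shared a word of 13 bases, ACTCTAACCCTAA, and a word of 11 bases, TAGCCAATCAG, which includes the CCAAT box. The shorter word was found on either strand in 8 member promoters (5.3%), against 0.382% of the other genes of the table and 0.385% of all promoters, and all 8 genes had a KRAB A box. The longer word was found in 4 of them (2.65%, against 0.143% and 0.141%), the above genes and Zfp442. Because both words were defined on Zfp937, Zfp971 and Zfp972, these 3 genes count among the hits by construction, and the shares describe the words without setting the members apart. The stretch that holds both words, in capitals, is given for the 4 genes to show how alike these promoters are. The positions in GRCm38.p6 are chr2:150217980-150218062 (plus strand, Zfp937), chr2:150451550-150451632 (minus strand, Zfp442), chr2:177925715-177925797 (minus strand, Zfp972) and chr2:178023146-178023228 (plus strand, Zfp971).
Zfp937: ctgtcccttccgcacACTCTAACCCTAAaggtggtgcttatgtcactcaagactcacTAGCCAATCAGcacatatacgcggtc
Zfp442: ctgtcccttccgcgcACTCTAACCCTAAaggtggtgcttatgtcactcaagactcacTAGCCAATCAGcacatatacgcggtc
Zfp972: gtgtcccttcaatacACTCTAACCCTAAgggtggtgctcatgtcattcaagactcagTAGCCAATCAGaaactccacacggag
Zfp971: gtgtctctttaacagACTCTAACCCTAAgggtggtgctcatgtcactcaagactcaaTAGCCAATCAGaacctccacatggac
The 4 genes did not share a level. The mean over the 6 libraries was 1.32 FPKM for Zfp937, 2.59 for Zfp972, 0.573 for Zfp971 and 0.0467 for Zfp442, where FPKM is the number of fragments set against transcript length and the size of the library, so that levels of different genes are compared per length.

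Levels of the Zfp genes in blood were low, and Ctrl 1 stood apart from the other libraries. Added up, the 185 members came to 159.7, 39.1 and 23.9 FPKM in the Ctrl libraries (1, 2 and 3) and to 33.3, 20.5 and 20.0 FPKM in the Akk libraries. The group means of this sum were 74.3 ± 74.4 FPKM in Ctrl and 24.6 ± 7.57 FPKM in Akk (SD, n = 3 mice each). The groups overlapped, since Akk 1 was above Ctrl 3. The median member stood at 0.38, 0.11 and 0.07 FPKM in Ctrl 1, 2 and 3 and at 0.1, 0.05 and 0.04 FPKM in Akk 1, 2 and 3. The median gene of the whole table stood at 1.41, 0.35 and 0.22 and at 0.3, 0.18 and 0.19 FPKM, so that a Zfp gene was typically lower than the other genes in each library. As a share of the summed FPKM of the table, the members took 0.225%, 0.2% and 0.222% in the Ctrl libraries and 0.292%, 0.199% and 0.186% in the Akk libraries, and on this scale Akk 1 was the highest of all 6.

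**Figure D1:**
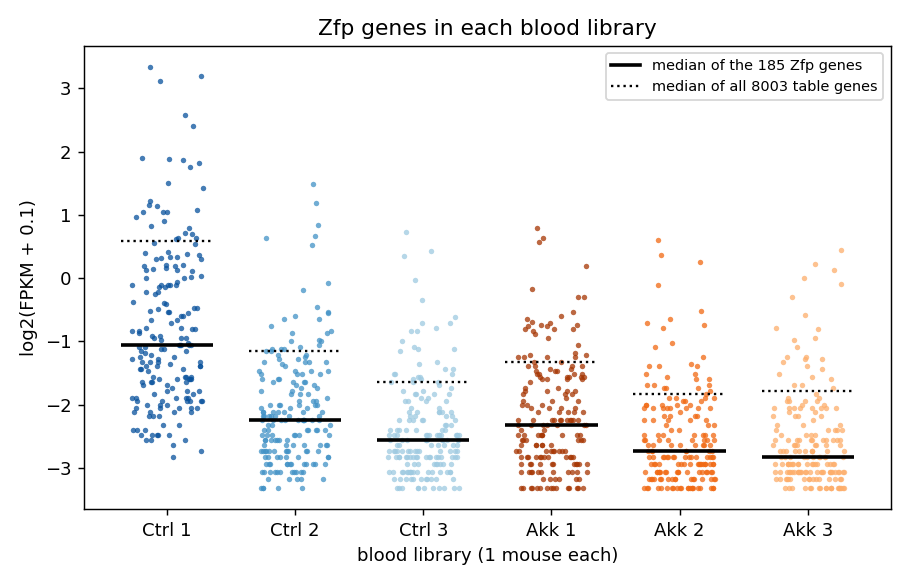
Each point is 1 of the 185 Zfp genes in 1 blood library, on the log2(FPKM + 0.1) scale, with blue for Ctrl and orange for Akk. Solid lines mark the median of the Zfp genes and dotted lines the median of all 8003 genes of the table. The points of Ctrl 1 sit above those of the other 5 libraries, and Ctrl 3 sits below Akk 1.

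Ctrl 1 was the highest library for 183 of the 185 members (98.9%, against 98.2% of the table). The median member was 4.73 times higher in Ctrl 1 than in the mean of Ctrl 2 and Ctrl 3, against 5.065 times for the whole table. Outside Ctrl 1 the libraries interleaved. Akk 1 was above Ctrl 3 for 119 members and below it for 43. All 3 Akk libraries were below Ctrl 2 for 89 members and below Ctrl 3 for 28. Akk 1 was the highest of the Akk libraries for 146. These counts were made over the members only, and the whole table shifted in the same directions. The median log2 difference of Ctrl 3 minus Akk 1 was -0.21 over the members and -0.22 over the table. That of Ctrl 2 minus Akk 2 was 0.415 and 0.613, and that of Akk 1 minus Akk 2 was 0.35 and 0.40. Markers of several blood cell types were summed as a check on the tissue. Neutrophil markers (10 of 10 listed were in the table) summed to between 237.1 and 1233 FPKM in the Ctrl libraries and between 130.1 and 339.7 in the Akk libraries. Platelet markers (6 of 6) spanned 298.5 to 2990 and 376.8 to 468.6 FPKM, NK cell markers (5 of 5) 9.59 to 48.7 and 4.34 to 7.26, and monocyte markers (5 of 6) 13.4 to 232.4 and 6.84 to 15.7. T cell markers (3 of 7) spanned 3.3 to 8.94 and 1.2 to 3.46 FPKM, and B cell markers (2 of 6) 2.76 to 12.9 and 2.17 to 6.02. The highest value of each of these lists was in Ctrl 1, none of the genes was at 0 in any library, and none of the 9 red cell or 9 eye markers was among the genes of the table. The table holds only genes kept as differing between the groups, so a missing marker may still have been expressed. Their part in the levels of the Zfp genes was not tested. In a bulk sample of blood, fewer cells of a type and less RNA per cell cannot be told apart.

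All 185 members had a lower mean in Akk than in Ctrl, and none of them passed the test. The thresholds of the study's methods were used, a 1.5-fold change with an adjusted p no higher than 0.05. By limma on log2(FPKM + 0.1), fitted over all 8003 genes with Benjamini-Hochberg adjustment, 0 members were called lower (0.0% of the table was) and 0 called higher (0.0% of the table), and the adjusted p of the members ran from 0.487 to 0.763. At an unadjusted p under 0.05, 1 member was lower (3.4% of the table was). By the ratio of means alone, with no test, 184 of the 185 were lower at 1.5-fold or more, where 99.5% of the table was. The table holds the genes that the authors kept as differing between these groups, so a lower mean was part of what brought a gene into it, and the count of lower members is no finding about the Zfp genes. The groups did not overlap for 20 members (10.8%), all lower in Akk, against 15.4% of the table. Leaving out a library can only keep or raise such a count. It was 89 without Ctrl 3, where 57.8% of the table did not overlap, and 66 without Akk 1, where 41.8% did not. Without Ctrl 1 it was again 20, with 3 members higher in Akk, and the share of the table is not given for that fit.

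On the log2(FPKM + 0.1) scale, the size of the difference was smaller than in the whole table and followed the level of the genes. The median log2 difference (Akk minus Ctrl) was -0.64 over the members, with a range from -1.45 to -0.11, and -0.87 over the table. Because 0.1 is added, this scale makes the change of a weakly measured gene look smaller. By the ratio of mean FPKM, which adds nothing, the median member stood at 0.31 of Ctrl and the median gene of the table at 0.33. Split by mean level, the 77 members under 0.1 FPKM had a median log2 difference of -0.49 and the 1092 other genes at that level -0.48. The 86 members between 0.1 and 0.5 FPKM stood at -0.71 and the 2984 other genes at -0.79, and the 22 members at 0.5 FPKM or more at -0.94 and the 3742 other genes at -1.05. Among genes with a mean of at least 1 FPKM the order turned, with -1.18 over the 8 members and -1.11 over all 2366 genes. The ratio of means did not follow the level in this way. From under 0.1 to 0.5 FPKM or more, its medians were 0.275, 0.36 and 0.319 over the members. Over the other genes they were 0.25, 0.3455 and 0.332, so by this measure the drop was largest at the lowest level.

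**Figure D2:**
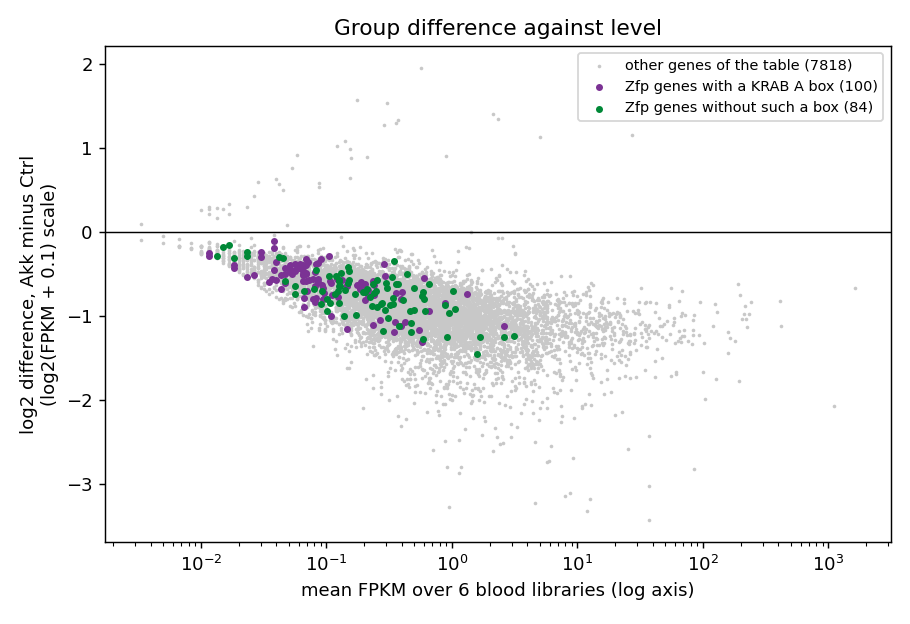
The difference between the groups (Akk minus Ctrl, log2(FPKM + 0.1) scale) is plotted against the mean FPKM over 6 libraries on a log axis, for Zfp genes with a KRAB A box (100), without such a box (84) and the other 7818 genes of the table. All the Zfp genes lie below 0, among the other genes of the same level, and differences on this scale shrink toward 0 at low levels.

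Without Ctrl 1 the difference was smaller and its direction no longer common to all members. The mean of the Akk libraries was then below that of Ctrl 2 and Ctrl 3 for 137 members (74.1%, against 80.7% of the table) and above it for 42. The median ratio of means was 0.764, against 0.772 over the table, and the median log2 difference was -0.16, against -0.24.

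The most abundant members carry out varied tasks, and each was highest in Ctrl 1. Zfp664, a C2H2 protein with 9 fingers and no KRAB A box by pattern, had the highest mean of all members. It stood at 10.02, 2.7 and 1.55 FPKM in Ctrl 1, 2 and 3 and at 1.63, 1.42 and 1.26 FPKM in Akk 1, 2 and 3. Akk 1 lay above Ctrl 3, so the groups overlapped, and the log2 difference was -1.24 (SE 0.93, limma adjusted p = 0.487). Zfp207, also known as BuGZ, is a spindle protein that stabilises the checkpoint protein Bub3 and binds microtubules. Its levels were 8.62, 2.17 and 1.25 FPKM in Ctrl and 1.46, 1.19 and 0.9 FPKM in Akk. The log2 difference was -1.24 (SE 0.93, limma adjusted p = 0.487), and again Akk 1 exceeded Ctrl 3. Zfp972 had 9.09, 1.7 and 1.18 FPKM in Ctrl and 1.39, 1.09 and 1.07 FPKM in Akk. It is a KRAB gene whose transcript is near-identical to those of 5 other predicted genes, so its reads could have been divided between copies and its level is uncertain.

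Zfp219 is known as a cofactor of Sox9 in cartilage cells. Its values were 5.91, 1.34 and 0.69 FPKM in Ctrl and 0.79, 0.6 and 0.71 FPKM in Akk, with a log2 difference of -1.25 (SE 0.92, limma adjusted p = 0.487). Ctrl 3 lay inside the range of the Akk libraries. Zfp414 had a log2 difference of -1.45 (SE 0.92, limma adjusted p = 0.487). It stood at 5.18, 1.45 and 0.88 FPKM in Ctrl and at 0.5, 0.5 and 0.99 FPKM in Akk, so that only Akk 3 was above the lowest Ctrl library. Zfp937, a KRAB gene, stood at 3.59, 1.49 and 0.46 FPKM in Ctrl and at 0.71, 0.83 and 0.84 FPKM in Akk. All 3 Akk libraries were above Ctrl 3, and the log2 difference of -0.74 (SE 0.92, limma adjusted p = 0.495) rested on the other Ctrl libraries.

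Zfp384 is a nuclear matrix protein whose human counterpart is rearranged in some B cell leukaemias. It was measured at 3.64, 0.58 and 0.51 FPKM in Ctrl and at 0.71, 0.39 and 0.48 FPKM in Akk. Zfp277, which binds the Polycomb protein Bmi1 and helps to hold the Ink4a/Arf locus silent, stood at 2.75, 0.78 and 0.55 FPKM in Ctrl and at 1.04, 0.48 and 0.47 FPKM in Akk. Its log2 difference was -0.70 (SE 0.92, limma adjusted p = 0.501), and Akk 1 exceeded both Ctrl 2 and Ctrl 3. These 8 genes were the members with a mean of at least 1 FPKM.

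The remaining genes of the 12 most abundant members had means under 1 FPKM. Zfp106, an RNA-binding protein needed for motor neuron upkeep, stood at 3.42, 0.46 and 0.48 FPKM in Ctrl and at 0.5, 0.28 and 0.57 FPKM in Akk. Zfp710 had 3.55, 0.45 and 0.4 FPKM in Ctrl and 0.56, 0.14 and 0.37 FPKM in Akk. Both had an Akk library above Ctrl 2 and Ctrl 3. Zfp385a, an RNA-binding factor that is induced by p53, stood at 3.28, 0.59 and 0.22 FPKM in Ctrl and at 0.52, 0.28 and 0.42 FPKM in Akk, so that every Akk library was above Ctrl 3. Zfp65, a KRAB gene, stood at 2.59, 0.85 and 0.37 FPKM in Ctrl and at 0.54, 0.54 and 0.41 FPKM in Akk, again all above Ctrl 3.

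**Figure D3:**
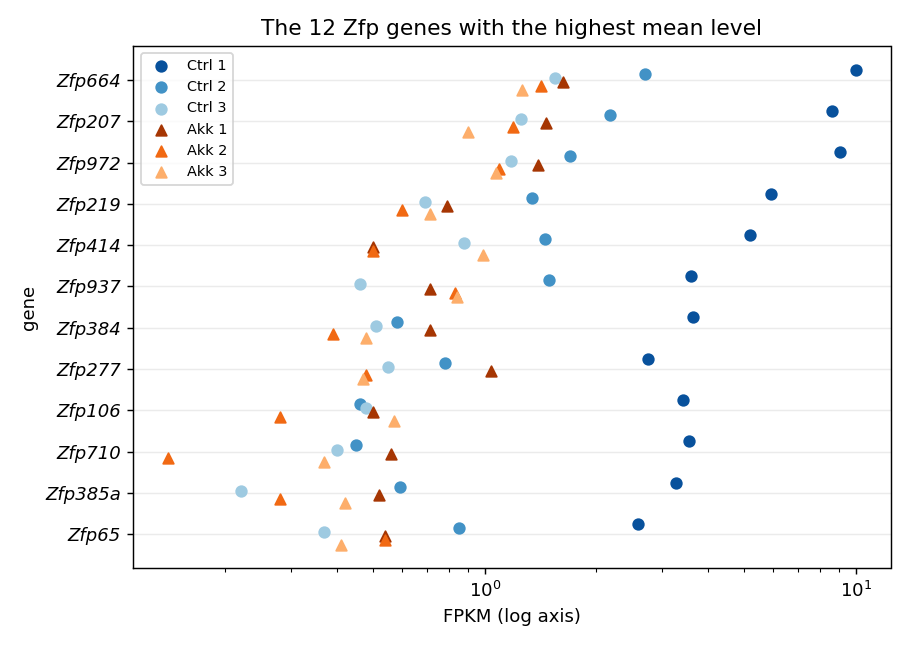
FPKM (log axis) of the 12 Zfp genes with the highest mean, with circles for the Ctrl libraries and triangles for the Akk libraries. In each row the darkest circle, Ctrl 1, lies far to the right, at 2.59 FPKM or more, and the other Ctrl libraries lie among or close to the Akk libraries.

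The 20 members whose groups did not overlap were all of low level, with means from 0.0183 to 0.473 FPKM, and 15 of them had a KRAB A box by pattern. They are described here after their values were seen, as the rule for named genes took such members only at a mean of 0.5 FPKM or more and found 0. Zfp746, also known as PARIS, represses the mitochondrial regulator Pgc1a and is a target of parkin. It was the most abundant of the 20, at 1.37, 0.45 and 0.36 FPKM in Ctrl and 0.26, 0.25 and 0.15 FPKM in Akk, with a log2 difference of -1.19 (SE 0.91, limma adjusted p = 0.487). The KRAB gene Zfp874a stood at 0.91, 0.56 and 0.3 FPKM in Ctrl and at 0.25, 0.21 and 0.14 FPKM in Akk. In Zfp526 the Ctrl libraries lay close together, at 0.23, 0.19 and 0.18 FPKM, and the Akk libraries stood at 0.1, 0.11 and 0.08 FPKM. Of the 20, it had the smallest ratio of Ctrl 1 to the mean of Ctrl 2 and Ctrl 3 (1.24). Zfp341, whose human counterpart activates STAT3, stood at 0.3, 0.12 and 0.09 FPKM in Ctrl and at 0.04, 0.03 and 0.03 FPKM in Akk.

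Zfp963 had the smallest p of all members and was the member at an unadjusted p under 0.05 (limma, unadjusted p of 0.0418, with an adjusted p = 0.487). This KRAB gene stood at 0.21, 0.11 and 0.04 FPKM in Ctrl and at 0.02, 0 and 0.02 FPKM in Akk, with a log2 difference of -0.89 (SE 0.44). Zfp729b, Zfp160, Zfp853 and Zfp768 came next, with unadjusted p between 0.0541 and 0.0664. Zfp729b, a KRAB gene with 30 fingers, stood at 0.48, 0.22 and 0.06 FPKM in Ctrl and at 0.04, 0.06 and 0.02 FPKM in Akk. Values this small are only a few steps of the 0.01 FPKM to which the table was rounded. The number of reads behind them is unknown. In 39 members at least 1 library was listed at 0, and 7 members, Zfp11, Zfp128, Zfp229, Zfp324, Zfp759, Zfp948 and Zfp987, were listed at 0 in every Akk library. Their Ctrl 1 values lay between 0.05 and 0.19 FPKM, so no fold is given for them.

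Only Zfp960 and Zfp382 did not have their highest value in Ctrl 1. Zfp960 stood at 0.08, 0.26 and 0.04 FPKM in Ctrl and at 0, 0.04 and 0.07 FPKM in Akk, highest in Ctrl 2. Its transcript is near-identical to that of Zfp97, so the levels of these KRAB genes are uncertain. Zfp382, a KRAB gene, stood at 0.07, 0.02 and 0.03 FPKM in Ctrl and at 0.11, 0 and 0 FPKM in Akk, with a log2 difference of -0.11.

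Members with a KRAB A box by pattern were lower in level than the other members. Their median mean level was 0.0825 FPKM over 100 genes, against 0.232 FPKM over 84 genes. Level also varied with the number of fingers, with medians of 0.233 FPKM in the 13 genes with fewer than 3 fingers, 0.233 FPKM in the 62 with 3 to 9 and 0.0917 FPKM in the 109 with 10 or more. The group difference varied less. The median ratio of means was 0.305 with a KRAB A box and 0.315 without such a box, and the median log2 difference was -0.58 and -0.71. The groups did not overlap for 15 of the 100 and for 5 of the 84, against 15.4% of the table. Without Ctrl 1, the Akk mean was lower for 74 of the 100 and for 62 of the 84. The 27 members with the Zfp143 site in their promoter had a median level of 0.0817 FPKM and a median ratio of 0.3, against 0.14 FPKM and 0.331 for the 124 matched members without the site. No test was run between these classes, since genes of 1 library are not independent replicates.

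**Figure D4:**
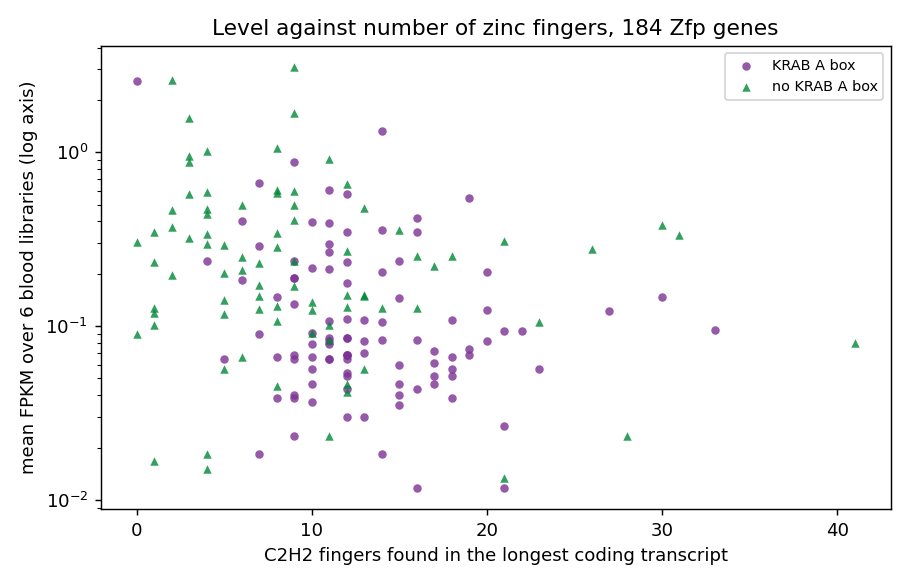
Mean FPKM over 6 blood libraries (log axis) against the number of C2H2 fingers found by pattern, for the 100 Zfp genes with a KRAB A box (circles) and the 84 without such a box (triangles). The KRAB genes crowd toward 0.1 FPKM and below, at 7 to 20 fingers, and most genes above 0.5 FPKM have no KRAB A box by pattern.

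Members with a known part in blood cells had means up to that of Zfp384, described above, and none passed the test. Of 11 such genes listed, 9 were in the table, with a median log2 difference of -0.72 against -0.87 over the table, and 0 of the 9 were without overlap between the groups, where 15.4% of the table was. Zfp335, which T cells need to mature, stood at 1.53, 0.31 and 0.35 FPKM in Ctrl and at 0.18, 0.17 and 0.32 FPKM in Akk. Only Akk 3 reached into the range of the Ctrl libraries. Zfp410, whose human counterpart drives the remodeller gene Chd4 and thereby keeps fetal globin silent, stood at 0.47, 0.28 and 0.09 FPKM in Ctrl and at 0.24, 0.06 and 0.07 FPKM in Akk. Chd4 itself stood at 4.9, 1.07 and 1.08 FPKM in Ctrl and at 1.21, 0.78 and 0.71 FPKM in Akk. In both genes Akk 1 was the highest Akk library and lay above a Ctrl library. Zfp608, which represses the Rag genes in thymocytes, stood at 1.15, 0.06 and 0.21 FPKM in Ctrl and at 0.33, 0.19 and 0.14 FPKM in Akk, with every Akk library above Ctrl 2. Zfp521, a cofactor of blood progenitors, was barely measured, at 0.1 FPKM in Ctrl 1 and between 0 and 0.01 FPKM in the other 5 libraries. Zfp143 stood at 0.74, 0.22 and 0.1 FPKM in Ctrl and at 0.11, 0.14 and 0.07 FPKM in Akk.

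Members that act on RNA, ribosomes or ubiquitin were somewhat more abundant, with a median level of 0.465 FPKM over the 9 of 11 listed genes in the table, and a median log2 difference of -0.77. None passed the test. Zfp598, the ubiquitin ligase that senses collided ribosomes, stood at 1.04, 0.3 and 0.18 FPKM in Ctrl and at 0.32, 0.2 and 0.18 FPKM in Akk. Zfp622, which takes part in maturation of the large ribosomal subunit, stood at 1.46, 0.63 and 0.27 FPKM in Ctrl and at 0.59, 0.21 and 0.3 FPKM in Akk. In both, Ctrl 3 lay inside the range of the Akk libraries or at its edge. Zfp638, which helps to silence unintegrated retroviral DNA, stood at 1.63, 0.3 and 0.2 FPKM in Ctrl and at 0.33, 0.2 and 0.13 FPKM in Akk.

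Partners of histone-modifying complexes had a median log2 difference of -0.76 over the 8 of 11 listed genes in the table, and none passed the test. Zfp217, a partner of the CoREST complex, stood at 2.22, 0.4 and 0.25 FPKM in Ctrl and at 0.23, 0.15 and 0.25 FPKM in Akk, and the groups only touched, at 0.25. Zfp644, which joins Wiz in bringing the H3K9 methyltransferases G9a and GLP to DNA, stood at 1.16, 0.25 and 0.12 FPKM in Ctrl and at 0.25, 0.17 and 0.1 FPKM in Akk. Zfp592, of a complex with Zfp687 and Zmynd8, stood at 1.96, 0.36 and 0.36 FPKM in Ctrl and at 0.51, 0.29 and 0.16 FPKM in Akk. Both genes had an Akk library at or above a Ctrl library.

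Members known from imprinting and retrovirus silencing were few. Of 9 listed, Zfp445, Zfp568 and Zfp809 were in the table, with a median log2 difference of -0.51, and none passed the test. Zfp445, which protects imprinted regions, stood at 0.56, 0.11 and 0.09 FPKM in Ctrl and at 0.18, 0.07 and 0.05 FPKM in Akk. Zfp809, which recognises retroviral DNA at the primer binding site, stood at 0.9, 0.13 and 0.13 FPKM in Ctrl and at 0.28, 0.16 and 0.14 FPKM in Akk, so that every Akk library was above Ctrl 2 and Ctrl 3. Zfp568, a repressor of a placental Igf2 promoter, stood at 0.22 FPKM in Ctrl 1 and between 0.02 and 0.05 FPKM in the other 5 libraries.

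The complex that KRAB proteins recruit was more abundant than the KRAB genes themselves. Of 19 genes listed for the corepressor and its NuRD partners, 15 were in the table, with a median level of 0.85 FPKM and a median log2 difference of -0.97, and none passed the test. Trim28, the protein that the KRAB box binds, was not analysed here. Setdb1, the H3K9 methyltransferase of the complex, stood at 1.05, 0.25 and 0.09 FPKM in Ctrl and at 0.19, 0.09 and 0.12 FPKM in Akk. Its cofactor Atf7ip stood at 5.11, 0.61 and 0.58 FPKM in Ctrl and at 0.72, 0.42 and 0.33 FPKM in Akk. In both, Akk 1 lay above a Ctrl library. Among other genes of H3K9 methylation, 6 of 9 listed were in the table, with a median log2 difference of -0.65. Of 4 listed genes of DNA methylation only Dnmt3a was, at 1.08, 0.16 and 0.13 FPKM in Ctrl and 0.14, 0.09 and 0.13 FPKM in Akk. None of these 7 genes passed the test.

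Genes of 3 other zinc finger symbol families were measured beside the Zfp genes. The 27 genes with Zbtb symbols, of which Zbtb8os is named for its position and encodes no C2H2 protein, had a median log2 difference of -0.71 at a median level of 0.205 FPKM, the 9 Klf genes -0.95 at 0.993 FPKM and the 5 Ikzf genes -0.74 at 0.4 FPKM. None of the 41 genes passed the test, and the groups did not overlap for 2 Zbtb genes (7.41%), 1 Klf gene (11.1%) and 2 Ikzf genes (40.0%), against 15.4% of the table, in sets too small to read a share from. These families were not tested against the Zfp genes.

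Each library was also centred on the median of its 8003 genes. Centring shifts all genes of a library alike, so it fixes the table near 0, and the sign it leaves on the members says nothing of their direction. The median log2 difference was then 0.28 over the members and 0.04 over the table, and the members stood 0.23 above the table both before and after centring. Values above 0 were found for 82.7% of the members and 54.9% of the table, and they went with low level in genes of any kind. Under 0.1 FPKM, 77 of 77 members and 1048 of 1092 other genes were above 0, with medians of 0.43 and 0.44. Of the genes at 0.5 FPKM or more, 9 of 22 members and 1146 of 3742 others were above 0, with medians of -0.02 and -0.14. On the centred scale 0 members passed the test (smallest adjusted p = 0.934). The groups did not overlap for 12 members that were higher, where 4.01% of the table was, and for 1 that was lower, where 4.44% of the table was. Among the 22 members at 0.5 FPKM or more, Zfp414 (-0.54), Zfp971 (-0.40), Zfp217 (-0.36), Zfp219 (-0.34) and Zfp710 (-0.34) were the most negative on the centred log2 scale. Zfp984 (0.37), Zfp180 (0.29), Zfp277 (0.21), Zfp524 (0.20) and Zfp937 (0.18) were the most positive. Zfp984, a KRAB gene, stood at 1.96, 0.49 and 0.13 FPKM in Ctrl and at 0.42, 0.32 and 0.31 FPKM in Akk, and every Akk library was above Ctrl 3. Zfp971, a KRAB gene near-identical to Zfp965, stood at 1.97, 0.54 and 0.19 FPKM in Ctrl and at 0.47, 0.24 and 0.03 FPKM in Akk.

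**Figure D5:**
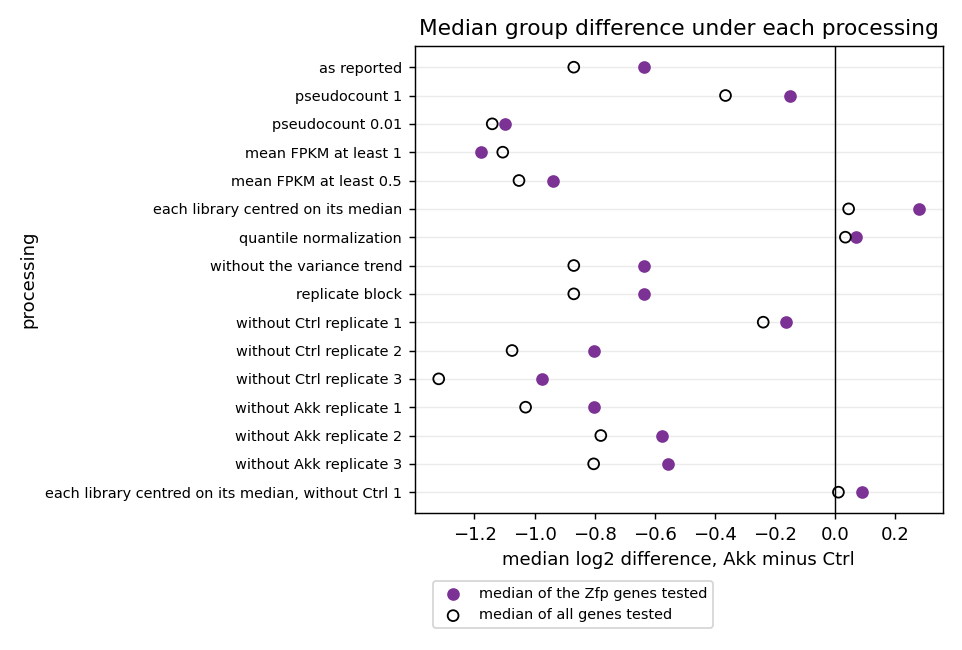
Median log2 difference (Akk minus Ctrl) of the Zfp genes tested (filled) and of all genes tested (open) under each processing, 1 row per setting. As reported the medians are -0.64 and -0.87, and without Ctrl 1 they are -0.16 and -0.24. They lie above 0 where the libraries are centred (0.28 and 0.04) or quantile normalized (0.07 and 0.03), which places the table near 0.

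No member of the family was listed in the hippocampus table of the same mice, which holds 284 genes. A table of that size lists only part of the genes, so a missing Zfp gene may still have been expressed there.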

How the data were processed

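Blood RNA of 3 Ctrl and 3 Akk mice was sequenced on the BGISEQ-500 after oligo(dT) selection, and samples were grouped by their labels. The authors deposited FPKM per gene and library, rounded to 2 decimals. The study's methods name HISAT2, Bowtie2 and RSEM, whereas the submitters' processing notes list TopHat2, Cufflinks and GRCm38, so the tool behind the FPKM is unsettled. The table holds the genes that the authors kept as differing between the groups, 8003 in blood, so the fit and the adjustment rest on selected genes. Columns of per-sample values that were not used number 0. Only rounded FPKM and no read counts were used, so depth and counting error are unknown. Precision is limited by having 3 mice a group, for which the smallest exact permutation p is 0.1.

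From the deposited FPKM, log2(FPKM + 0.1) was fitted with limma 3.58.1 (R 4.3.3), with an intensity trend and no scaling, over the whole table, with Benjamini-Hochberg adjustment. Calls needed a 1.5-fold change with an adjusted p no higher than 0.05. The fit was also run on simulated data with independent noise for each gene. No simulated library was shifted as a whole, so that run does not speak to the high values of Ctrl 1. Fingers, KRAB and SCAN boxes were found by pattern in translated GENCODE M21 coding sequences, in place of RefSeq proteins as first planned, and near-identical transcripts (95% identity over 50% of the length) with blastn 2.17.0. Work was done in Python 3.11.15 with biopython 1.88, numpy 2.4.6, matplotlib 3.10.9 and pandas 2.3.3.

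The genes named are the 12 members with the highest mean, the 5 with the smallest p, members at 0.5 FPKM or more that were higher in Akk or without overlap between groups (0 were), the 5 most positive and 5 most negative of those at 0.5 FPKM or more after centring, members not highest in Ctrl 1, and genes of the role and partner lists. Genes outside this rule (those without overlap or listed at 0 in every Akk library, and those named for their promoter or fingers) were named after their values or sequences were seen. The members and lists were chosen with earlier results of these data known. Alternatives were other pseudocounts, filters, scalings, no trend, the replicate number as a block, and each library left out in turn.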

Additional observations from a re-analysis of the deposited data

How the results depend on the processing

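No alternative called a member lower or higher (0 in each). Over the whole table, 23 genes were called lower without Ctrl 3, 4 with a pseudocount of 0.01, 1 with the replicate block and 1 after centring without Ctrl 1. After centring, 1 gene of the table was called higher, and 1 was when Ctrl 1 was left out as well. The count of members at an unadjusted p under 0.05, 1 as reported, was 0 with a pseudocount of 1, with a mean FPKM of at least 1 (8 members tested) or 0.5 (22 tested), after centring, after quantile normalization and without the variance trend, and 4 with a pseudocount of 0.01. With the replicate block it was 6. The replicate numbers mark different mice and their deviations did not go together (correlations 0.036, -0.011 and -0.096). With the block no member was called, at a smallest limma adjusted p of 0.401, and 1 gene of the table was called lower. The count of members lower with no overlap was 0 under both filters, 1 after centring, 2 after quantile normalization and 9 after centring without Ctrl 1. Those higher with no overlap after these scalings numbered 12, 13 and 19. After centring, 4.44% of the table was lower with no overlap and 4.01% was higher. The share of the table is not given for the other settings, so their counts are no finding about the Zfp genes. The median log2 difference of the members turned to 0.28 after centring, 0.0708 after quantile normalization and 0.088 after centring without Ctrl 1. The table was then at 0.04, 0.03 and 0.01, since these scalings set it near 0. Centring moves all genes of a library alike, so it could not change the gap of 0.23 between members and table. This gap was 0.22 with a pseudocount of 1, but 0.04 with a pseudocount of 0.01 and 0.04 after quantile normalization. With a mean FPKM of at least 0.5 it was 0.11, and with at least 1 it was -0.07. The change of sign of the median comes from the scaling. Likewise Zfp277 turned to 0.21, 0.35 and 0.18, Zfp937 to 0.18, 0.32 and 0.17, and Zfp963 to 0.027 after centring. Leaving out each library in turn gave medians from -0.97 (without Ctrl 3) to -0.16 (without Ctrl 1), medians relative to the table from 0.08 to 0.34, 0 to 31 members at an unadjusted p under 0.05, 20 to 89 lower with no overlap and 0 to 3 higher. The count at an unadjusted p under 0.05 was 6 without Ctrl 1, 3 without Ctrl 2, 31 without Ctrl 3 and 0 without each Akk library. The share of the table at that threshold is given only for the fit as reported, so counts under the alternatives cannot be set against the table. Without Ctrl 3, 89 members were lower with no overlap, where 57.8% of the table was. Without Akk 1, 66 members were, where 41.8% of the table was. Why the other values moved was not tested, apart from the smaller number of genes or libraries in the filters and left-out fits. Depth is unknown, and 77 members had a mean under 0.1 FPKM, where the rounding to 0.01 FPKM is coarse.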
